A study of Homo sapiens with 72 samples.

Results

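The 8 genes described here were ERG, AGAP1, PTPRM, STAP1, GYPC, CD2, CLEC12A and CLEC12B, taken from a fixed list of names out of the 20033 protein-coding genes of GENCODE 44. They were located on hg38, and all of their annotated transcription starts were used. Starts of a gene lying within 2 kb of each other were joined, so that each window reached 1 kb to either side of its starts. This gave 29 windows for the 8 genes among 55232 windows for all genes, with 5 windows each for ERG and AGAP1, 13 for PTPRM, 2 for CLEC12A and 1 for each of the other 4 genes. Windows are numbered here from 5′ to 3′ along the gene.

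The genes belong to the expression pattern of DUX4-rearranged B-cell precursor leukemia. In that leukemia a translocation places the DUX4 homeobox gene under immunoglobulin control, and the DUX4 protein then binds within ERG and starts altered ERG transcripts. ERG is an ETS-family transcription factor of blood stem cells and endothelium, and CD2 and CLEC12A are surface proteins used to recognise this leukemia by flow cytometry. NALM6 is a B-cell precursor leukemia line known to carry such a rearrangement. REH is a B-cell precursor leukemia line with the ETV6-RUNX1 fusion, and Raji is a Burkitt lymphoma line that holds Epstein-Barr virus.

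Cut&Tag uses an antibody to bring a transposase to a histone mark, so that DNA next to the mark is cut out and sequenced. H3K4me3 lies mainly at active starts, H3K4me2 at starts and enhancers, and H3K27me3 over genes silenced by Polycomb. Untreated NALM6, REH and Raji cells and the same lines given 1 nM bryostatin, an activator of protein kinase C, were profiled for the 3 marks with 3 replicates each. This makes 6 libraries per line and mark and 54 in all. Each line is a single culture model of its disease, and nothing in the labels says whether the replicates were separate cultures, so the p-values below may measure only technical spread.

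The deposited peaks were called in each library on its own. The value of a window is the total signal of its peaks, divided in each library by the median of the windows that had a peak in all 18 libraries of the mark. A value of 1 is therefore the level of a common start, and 0 means that no peak was called there, which is not the same as absence of the mark. The 6 libraries of NALM6 replicate 1 carried another signal scale. The 4 of them for H3K4me2 and H3K4me3 had shorter peaks, with median lengths of 672 to 916 bp against 1200 to 3210 bp in the other libraries of these marks. Depth could be read from the signal in the other 48 libraries and ranged from 5.12 to 47.9 M mapped reads. Peak numbers ranged from 7130 to 22540 for H3K4me2 and from 4389 to 12798 for H3K4me3. For H3K27me3 they ranged from 590 to 101702, and only 13 windows had an H3K27me3 peak in all 18 libraries, so levels of that mark rest on a weak scale. The lines were checked against marker lists. H3K4me2 peaks stood at all 7 B-lineage genes of a marker list in at least 3 of 6 libraries of every line, and at all 4 mature B genes (CD40, CR2, FCER2, MS4A1) in Raji against 1 of 4 in NALM6 and in REH. Of the 6 erythroid genes, H3K4me2 peaks stood in at least 3 libraries at 0 in NALM6 and 1 in REH and in Raji, and of the 6 myeloid genes at 0, 2 and 1. Of the 7 T and NK genes, CD247 had such peaks in every line and CD8A in REH. Of the 5 precursor B genes, 4 in NALM6, 5 in REH and 2 in Raji did.

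Sequences are shown for both marked starts of AGAP1, which differ in the lines where they were marked, and for the internal start of ERG. The 250 bases before each start were read from hg38 in the direction of transcription, with CG dinucleotides in capitals. AGAP1 has a first start at AGAP1-201 (chr2:235493793-235494042, plus strand) and an internal one at AGAP1-205 (chr2:235669354-235669603, plus strand). For ERG the stretch precedes the internal start of ERG-201, the canonical transcript (chr21:38498478-38498727, minus strand).
AGAP1-201: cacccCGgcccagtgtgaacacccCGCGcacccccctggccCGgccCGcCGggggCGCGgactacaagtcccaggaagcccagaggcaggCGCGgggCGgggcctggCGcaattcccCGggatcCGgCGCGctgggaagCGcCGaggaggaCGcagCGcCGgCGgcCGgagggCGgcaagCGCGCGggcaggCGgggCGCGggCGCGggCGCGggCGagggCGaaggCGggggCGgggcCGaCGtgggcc
AGAP1-205: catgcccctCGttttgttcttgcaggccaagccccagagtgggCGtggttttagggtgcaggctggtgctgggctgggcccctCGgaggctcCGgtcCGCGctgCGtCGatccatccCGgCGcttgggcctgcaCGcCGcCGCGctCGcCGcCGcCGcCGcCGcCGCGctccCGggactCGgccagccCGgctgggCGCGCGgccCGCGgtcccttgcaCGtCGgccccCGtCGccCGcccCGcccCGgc
ERG-201: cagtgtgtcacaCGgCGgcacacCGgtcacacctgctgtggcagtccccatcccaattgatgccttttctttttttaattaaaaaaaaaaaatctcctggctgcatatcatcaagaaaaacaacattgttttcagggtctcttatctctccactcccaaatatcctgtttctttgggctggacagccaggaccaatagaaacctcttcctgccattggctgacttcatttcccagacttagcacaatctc
The 2 AGAP1 stretches held 40 and 37 CG dinucleotides and the ERG stretch held 3. Over the whole windows, the observed number of CG relative to that expected from base composition was 0.972 at AGAP1 start 1, 0.95 at AGAP1 start 3, 0.939 at PTPRM start 1 and 0.584 at GYPC, against a median of 0.296 over all 55232 starts taken with 1 kb on each side. ERG start 3 had 0.345 and ERG start 1 had 0.947. The windows of CD2, STAP1, CLEC12A and CLEC12B had 0.0703 to 0.259.

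At starts, H3K4 marks were found in 4 of the 8 genes, namely AGAP1, PTPRM, GYPC and ERG. In NALM6 and REH each of these genes had at least 1 marked start, whereas in Raji none of the 29 windows had an H3K4me2 or H3K4me3 peak in any library. No start of STAP1, CD2, CLEC12A or CLEC12B had an H3K4me2 or H3K4me3 peak in any library of any line. Among all windows, 67.5% had no H3K4me2 peak and 73.4% no H3K4me3 peak in any of the 18 libraries. These shares do not measure how often a start marked in NALM6 or REH has no peak in Raji. The absence in Raji is therefore not shown to be particular to these genes.

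**Figure D1:**
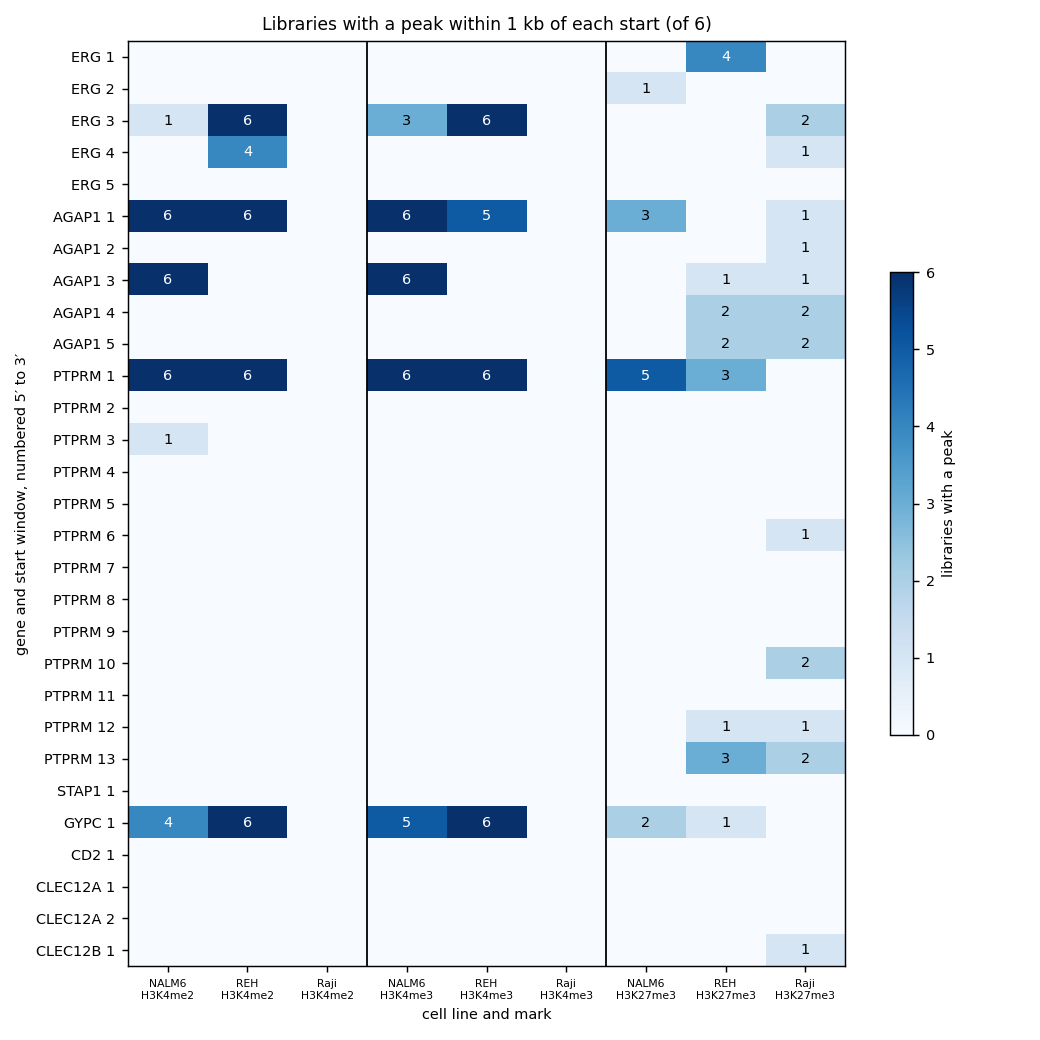
Number of libraries, of 6 per cell line and mark, with a peak in each of the 29 start windows. Columns are cell lines within each mark and rows are windows numbered 5′ to 3′. Blank cells are 0. AGAP1 start 3 carried both H3K4 marks in 6 NALM6 libraries and in 0 of REH and Raji.

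Of the 29 windows, 6 could be tested for H3K4me2 and 5 for H3K4me3, because a window had to have a peak in at least 3 of the 18 libraries. Against REH, NALM6 was higher at 2 windows and lower at 3 for H3K4me2, and higher at 3 and lower at 1 for H3K4me3 (limma over all windows, adjusted p under 0.05). Over all 16253 windows tested for H3K4me2, 4.1% were higher and 17.7% lower in NALM6 than in REH, and over 13380 windows for H3K4me3 5.54% were higher and 14.1% lower. Against Raji, NALM6 was higher at 4 windows for each mark and lower at 0. In that comparison 11.3% of all windows were higher and 23% lower for H3K4me2, with 12.2% and 27.8% for H3K4me3. The median log2 difference over all windows lay below 0, at -0.49 for H3K4me2 and -0.18 for H3K4me3 against REH and at -0.47 and -0.40 against Raji. Since no member window had an H3K4 peak in Raji, differences from Raji could only be 0 or higher, and the counts against Raji restate that absence. Windows marked in 1 line only entered the test through that line, so their values are given below as a description, without a p. The counts against REH include such windows, namely AGAP1 start 3 for both marks and ERG start 4 for H3K4me2. Their direction was fixed by the filter. ERG start 3 is treated likewise for H3K4me2, as a single NALM6 library had a peak there. All differences are on the scale of log2(value + 0.1). Where NALM6 and REH values are said below not to overlap, the share of all windows or gene bodies separated likewise was not counted. The only such share given is that of the NALM6-only pattern at AGAP1 start 3.

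AGAP1 encodes an ARF GTPase-activating protein that acts in endosomal traffic (ENSG00000157985.20, chr2:235494043-236131793, plus strand, 638 kb). Its internal start 3, the start of the coding transcript AGAP1-205 that lies 175.6 kb after the first start, separated NALM6 from both other lines. H3K4me3 there was 1.95, 0.886 and 0.83 in untreated NALM6 and 2.07, 0.989 and 1.28 with bryostatin. H3K4me2 was 2.32, 0.733 and 0.739 in untreated NALM6 and 1.12, 0.427 and 0.411 with bryostatin. Every NALM6 library had both marks, and all 12 libraries of REH and Raji were listed at 0 for both, so the groups did not overlap. Among all windows tested, a peak in all 6 NALM6 libraries and in none of REH and Raji was found at 0.283% for H3K4me2, or 46 windows, and at 0.127% for H3K4me3, or 17 windows.

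At the first start of AGAP1 both precursor lines were marked. H3K4me2 was 1.24 to 3.67 in NALM6, with a median of 1.45, and 0.698 to 0.88 in REH, with a median of 0.8. The 2 highest NALM6 values were those of replicate 1, and the lowest NALM6 library still lay above the highest of REH. The log2 difference was 1.14 ± 0.25 (SE), with an adjusted p of 0.00396 in limma, and 0.73 with an adjusted p of 1.26e-05 without NALM6 replicate 1. H3K4me3 was 0.744 to 1.59 in NALM6, with a median of 0.822, and 0 to 0.411 in REH, with a median of 0.33. That difference was 1.63 ± 0.32, with an adjusted p of 0.00207. Without any scaling between libraries the 2 differences were 0.07 and 0.73, with adjusted p values of 0.952 and 0.253 (limma). In untreated libraries alone the differences were 1.07 for H3K4me2 and 2.24 for H3K4me3, with adjusted p values of 0.0888 and 0.0729 (limma). AGAP1 starts 2, 4 and 5 had no H3K4 peak in any library.

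**Figure D2:**
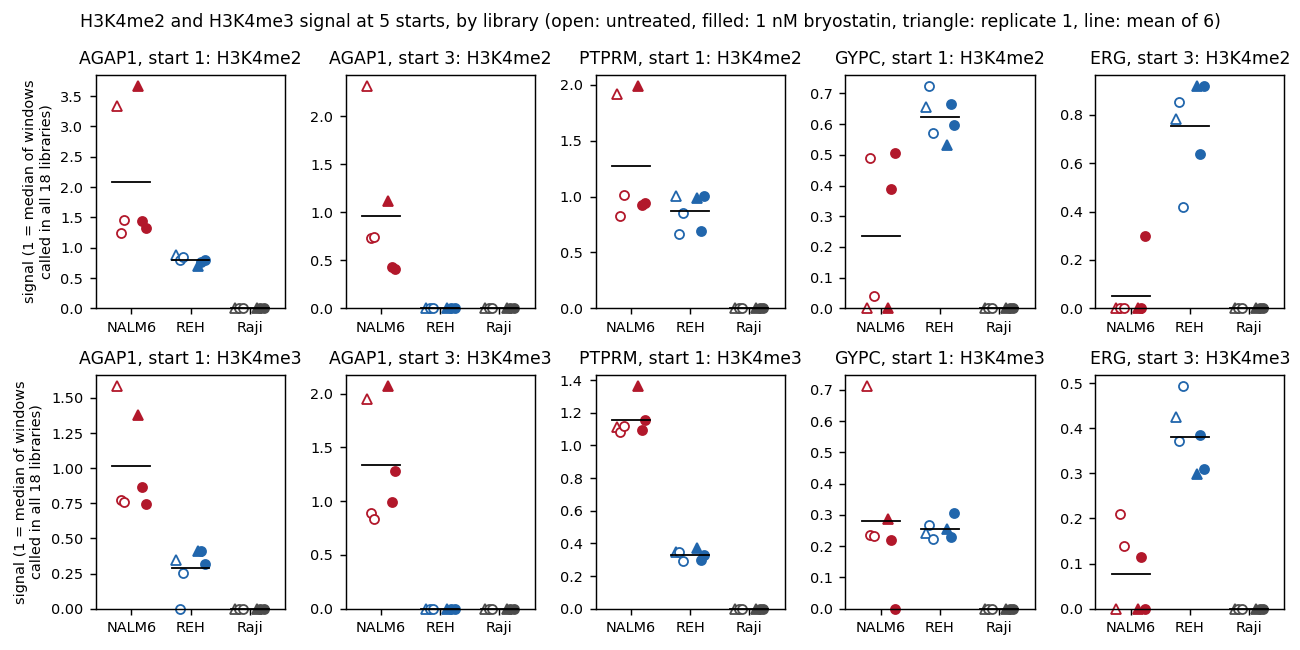
Signal at 5 starts by library for H3K4me2 (top) and H3K4me3 (bottom), with the median of windows called in all 18 libraries set to 1 and a linear axis from 0. Open points are untreated, filled points 1 nM bryostatin, triangles replicate 1, and lines the mean of 6 libraries. All Raji libraries sit at 0 in the 10 panels, and at AGAP1 start 3 REH sits at 0 as well.

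The H3K4me2 of NALM6 at AGAP1 reached well beyond the starts. Peaks of all libraries were merged where they overlapped, and 8 H3K4me2 regions lay over the gene. Of these, 5 had a peak in at least 3 NALM6 libraries and in none of the 12 of REH and Raji, whereas 1.86% of all 21966 merged H3K4me2 regions in genes did so. They were chr2:235498461-235506180 and chr2:235637741-235643240 with 5 NALM6 libraries, chr2:235663591-235667650 and chr2:235668911-235679600 with 6, and chr2:235998601-236002710 with 5. The fourth covers start 3, and the other 4 lie in introns. The first of them also overlaps the long noncoding gene AGAP1-IT1 on the annotation. Peaks covered 0.765% to 5.46% of the gene in NALM6, with a median of 3.32%, against 0.316% to 0.771% in REH, with a median of 0.407%. Per kb of gene the H3K4me2 signal of NALM6 was higher than that of REH by 1.83 ± 0.10 on the log2 scale, with an adjusted p of 1.42e-09 (limma). For H3K4me3 the region over start 3, chr2:235669161-235673850, was 1 of 2 regions over the gene and again was found in NALM6 only. Of all 13352 merged H3K4me3 regions in genes, 1.13% were found in NALM6 only by the same rule.

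At starts, 7 of the 29 windows could be tested for H3K27me3. Against REH 1 was higher in NALM6, PTPRM start 1, and 1 lower, ERG start 1, where 13.2% of all 9772 windows were higher and 33% lower. Against Raji 1 was higher, PTPRM start 1, and 0 lower, where 6.37% were higher and 4.21% lower. ERG start 1 had a peak in REH only, so it entered the test through REH and could only come out lower or not called. PTPRM start 1 had no peak in Raji, so against Raji it could only be higher. AGAP1 start 1 had H3K27me3 in 3 NALM6 libraries and 0 of REH. It passed the filter mainly through NALM6, so no p is given for it.

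Over the body of AGAP1, H3K27me3 went the other way. It covered 3.9% to 28.8% of the gene in REH, with a median of 12.2%, and 0% to 0.116% in NALM6. In Raji it covered 4.93%, 24.5% and 11.9% in the 3 libraries with more than 5000 peaks and 0% in the other 3. The log2 difference of NALM6 from REH in signal per kb was -1.78 ± 0.34 (adjusted p of 0.000477, limma), and -1.66 with an adjusted p of 0.00145 when libraries with fewer than 5000 peaks were left out. The 2 regions chr2:235498461-235506180 and chr2:235637741-235643240 held H3K4me2 in 5 NALM6 libraries and H3K27me3 in 3 Raji libraries. At chr2:235663591-235667650 and chr2:235998601-236002710, H3K27me3 stood in 3 REH libraries. Thus 2 of the 5 NALM6-only regions carried H3K27me3 in at least 3 Raji libraries and 2 in at least 3 REH libraries, against 14.2% and 10.8% of all 408 NALM6-only H3K4me2 regions in genes. This overlap was looked at after the peaks had been seen.

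**Figure D3:**
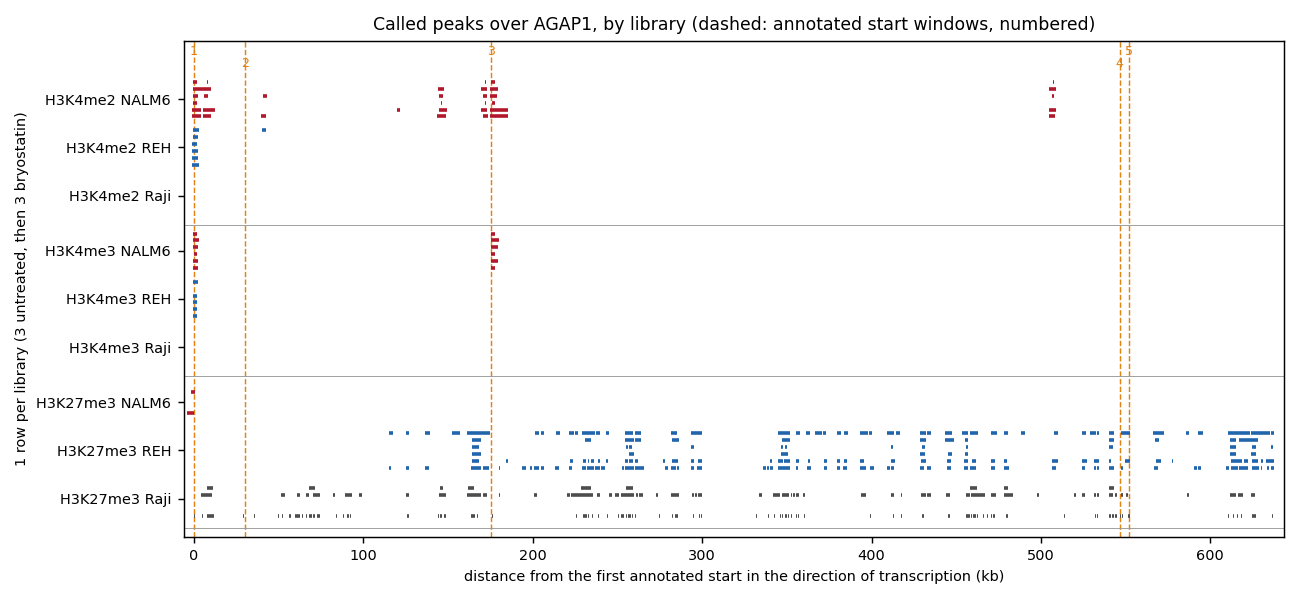
Called peaks over AGAP1, with the distance from the first annotated start in kb on the horizontal axis and a row for each of the 54 libraries, grouped by mark and line. Dashed lines are the 5 start windows. H3K4 peaks of NALM6 stand at starts 1 and 3 and at intronic sites, and H3K27me3 peaks spread along the gene in REH and Raji.

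ERG (ENSG00000157554.20, chr21:38380027-38661780, minus strand, 282 kb) showed the opposite order, with more H3K4 marks in REH than in NALM6. The canonical internal start 3 lies 163.3 kb after the first start, and the annotation also places the start of a long noncoding RNA on the same strand in this window, whose reads could not be separated from those of ERG. H3K4me2 at start 3 was 0.784, 0.851 and 0.418 in untreated REH and 0.918, 0.637 and 0.919 with bryostatin. In NALM6 it was 0.298 in bryostatin replicate 3 and 0 in the other 5 libraries. H3K4me3 was 0.426, 0.372 and 0.494 in untreated REH and 0.299, 0.385 and 0.309 with bryostatin. In NALM6 it was 0.211 and 0.139 in untreated replicates 2 and 3 and 0.114 in bryostatin replicate 2. It was 0 in the replicate 1 libraries, which had another signal scale and shorter peaks. It was also 0 in bryostatin replicate 3, which had the fewest peaks of any H3K4me3 library, 4389. The NALM6 and REH values did not overlap for either mark, and all Raji libraries were at 0.

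At ERG start 3 the log2 difference of NALM6 from REH was -2.73 ± 0.29 for H3K4me2. For that mark the window passed the filter through REH, so no p is given. For H3K4me3 the difference was -1.59 ± 0.26, with an adjusted p of 0.000392 (limma) that was 0.09 in untreated libraries alone. The other internal start 4 (ERG-212, chr21:38449105) had H3K4me2 in 4 REH libraries at 0.367 to 0.449 and in no NALM6 or Raji library. Starts 1, 2 and 5 had no H3K4 peak in any library. Start 1 instead had H3K27me3 in 4 of 6 REH libraries, with a highest value of 0.255, and in none of NALM6 or Raji.

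Over the gene body, H3K4me2 peaks covered 7.8% to 17.8% of ERG in REH, with a median of 15.1%, 0% to 8.02% in NALM6, with a median of 2.4%, and 0% in Raji. The log2 difference of NALM6 from REH in signal per kb was -2.38 ± 0.22 (adjusted p of 7.23e-07, limma). Of the 8 merged H3K4me2 regions over ERG, 4 were found in REH only and 0 in NALM6 only, where 6.78% and 1.86% of all regions in genes were. The regions shared by both lines were chr21:38432821-38442310 in an intron, with 5 NALM6 and 5 REH libraries, and chr21:38471761-38500680 around and after start 3, with 5 NALM6 and 6 REH libraries. In the second of these only 1 NALM6 library reached within 1 kb of start 3, and the other NALM6 peaks lay further into the gene. No H3K4 region over ERG was particular to NALM6 by the rule used, and so no sequence is given for one. At the intronic region chr21:38597761-38599630, H3K4me2 was called in 4 REH libraries, while H3K27me3 was called over it in 5 NALM6, 3 Raji and 0 REH libraries. Of the 1489 REH-only H3K4me2 regions in genes, 32% had H3K27me3 in at least 3 NALM6 libraries. H3K27me3 over the whole of ERG did not pass the test against REH, with an adjusted p of 0.293, but passed with 0.012 as higher in NALM6 when libraries with fewer than 5000 peaks were left out.

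**Figure D4:**
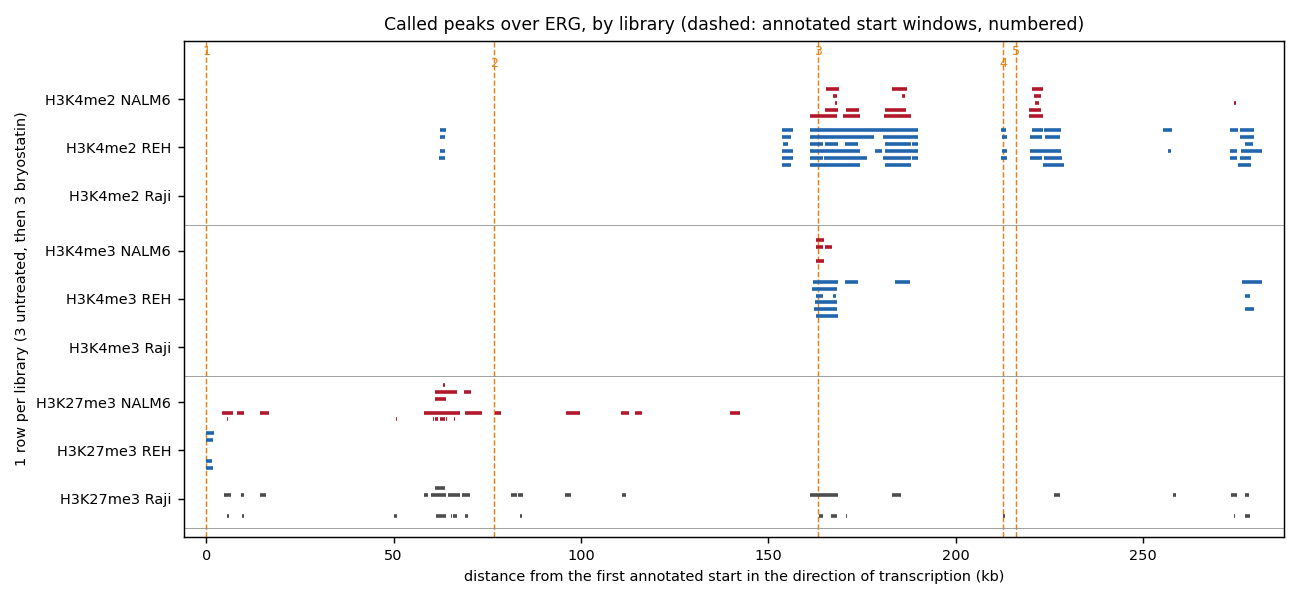
Called peaks over ERG, drawn as for AGAP1 with distance from the first start in kb. H3K4me2 of REH stands around starts 3 and 4 and at the 3′ end of the gene, NALM6 has shorter H3K4me2 peaks after start 3, and Raji has no H3K4 peak.

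By Pearson correlation of H3K4me3 over the 18 libraries, the windows most like ERG start 3 were the first starts of GSTP1, a glutathione transferase (r = 0.993), RUSC2 (r = 0.991) and ZNF512B (r = 0.989). At each of these, 3 NALM6, 6 REH and 0 Raji libraries had a peak. They were picked from the 13380 windows tested by these same values, and how many others share the pattern was not counted. The 6 libraries of a line are not independent of each other, so the values describe the pattern only.

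PTPRM, a receptor tyrosine phosphatase of cell contacts (ENSG00000173482.17, chr18:7566782-8406861, plus strand, 840 kb), had H3K4me3 at its first start alone. H3K4me3 was 1.08 to 1.36 in NALM6, with a median of 1.12, and 0.294 to 0.374 in REH, with a median of 0.337. Every NALM6 library was above every REH library. The log2 difference was 1.54 ± 0.14 with an adjusted p of 7.53e-07, and 0.68 with an adjusted p of 0.3 without scaling. H3K4me2 was 0.822 to 1.99 in NALM6 and 0.663 to 1 in REH, and these overlapped. That difference was 0.43 ± 0.22, with an adjusted p of 0.18, and -0.55 with an adjusted p of 0.336 without scaling. Raji had neither mark in any library. The same window also had H3K27me3 in 5 NALM6 and 3 REH libraries and in 0 of Raji, at 0 to 0.483 in NALM6 and 0 to 0.152 in REH. NALM6 was higher than REH with an adjusted p of 0.0397 (limma), which was 0.108 when libraries with fewer than 5000 peaks were left out. The adjusted p was 0.0666 without NALM6 replicate 1 and 0.127 without scaling. The highest NALM6 values, 0.483 and 0.363, were those of replicate 1, where peaks covered 580 and 111 bp of the window. Of the other 12 PTPRM starts, 11 had no H3K4 peak in any library and start 3 had 41 bp of H3K4me2 in 1 NALM6 library.

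GYPC, which encodes glycophorin C of the red cell membrane (ENSG00000136732.16, chr2:126656133-126696667, plus strand), had both H3K4 marks at its start in both precursor lines. H3K4me2 was 0.532 to 0.725 in all 6 REH libraries. In NALM6 it was 0, 0.489 and 0.0392 in untreated replicates 1 to 3 and 0, 0.388 and 0.504 with bryostatin, with both zeros in replicate 1. All NALM6 values were below all REH values, with a log2 difference of -1.53 ± 0.44 and an adjusted p of 0.0215, and -0.91 with an adjusted p of 0.0499 without NALM6 replicate 1. The call was lost in 3 of 32 other settings, with adjusted p values of 0.0846 after quantile normalization, 0.0701 in untreated libraries alone and 0.0571 without NALM6 untreated replicate 1. H3K4me3 was 0 to 0.712 in NALM6 and 0.224 to 0.308 in REH, which overlapped (log2 difference -0.13 ± 0.31, adjusted p of 0.812). Raji was at 0 throughout. Behind its start GYPC was covered by H3K27me3 in REH. The peaks covered 20.3% to 80.6% of the gene there, with a median of 55.1%, against 0% to 6.14% in NALM6 and 0% to 39.6% in Raji. The log2 difference of NALM6 from REH in H3K27me3 signal per kb was -3.52 ± 0.37 (adjusted p of 1.26e-06, limma), and -2.79 with an adjusted p of 6.1e-05 when libraries with fewer than 5000 peaks were left out. At the start itself only 1 REH library had an H3K27me3 peak, so the mark lay in the body of the gene and H3K4me3 at its start.

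**Figure D5:**
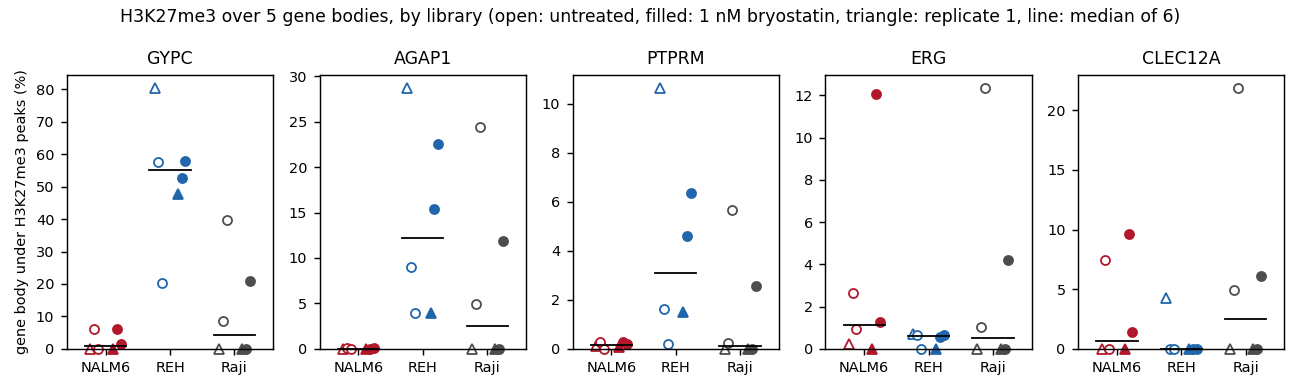
Share of the gene body under H3K27me3 peaks, in percent, by library for 5 genes, on linear axes that differ between panels. Open points are untreated, filled points 1 nM bryostatin, triangles replicate 1, and lines the median of 6. For GYPC and AGAP1 every REH library lies above every NALM6 library.

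Over gene bodies as a whole, 2 of 5 members tested for H3K27me3 were lower in NALM6 than in REH, GYPC and AGAP1, and 0 were higher, where 32.4% of all 8056 genes were lower and 10.1% higher. REH libraries had 17141 to 48483 H3K27me3 peaks and NALM6 libraries 590 to 78673. With every library reduced to the same number of peaks, 590, none of the 5 genes had a peak in enough libraries to be tested. Against Raji 0 of the 5 passed the limma test (0 at an unadjusted p under 0.05), and 4.15% of all genes were higher and 4.32% lower. With libraries of fewer than 5000 peaks left out, GYPC and AGAP1 were lower in NALM6 than in Raji, with log2 differences of -1.52 and -1.93, with adjusted p values of 0.0104 and 0.00238 (limma). In that fit 3703 of 8045 genes were called, against 682 with all libraries. Of the H3K4me2 bodies, 5 could be tested. In NALM6, AGAP1 and PTPRM were higher than in REH and ERG was lower, where 4.6% of all genes were higher and 19.3% lower, and the PTPRM difference was small, at 0.37 ± 0.12 with an adjusted p of 0.0421 that was lost in 18 of 31 other settings. Against Raji, GYPC, AGAP1, PTPRM and ERG were higher and STAP1 lower, where 11.6% were higher and 26.2% lower. STAP1 had H3K4me2 in Raji only and the other 4 genes had none in Raji, so each direction was fixed in advance. Of the 4 H3K4me3 bodies tested, AGAP1 and PTPRM were higher and ERG lower than in REH, where 5.72% were higher and 15.6% lower. GYPC, AGAP1 and PTPRM were higher than in Raji, where 12.8% were higher and 24.8% lower. The tested genes had no H3K4me3 peak in Raji, so they could not be lower.

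The other 4 genes had few marks. STAP1, an adaptor protein of B-cell receptor signalling (ENSG00000035720.8, chr4:67558727-67607337, plus strand), had H3K4me2 in its body in 4 Raji libraries, with up to 13.2% of the gene covered, and in none of NALM6 or REH. The region chr4:67574491-67577350 was found in these 4 Raji libraries only, and 10.6% of all H3K4me2 regions in genes were found in Raji only. A single untreated NALM6 library had an intronic H3K4me3 peak at chr4:67560191-67561310. CD2, an adhesion receptor of T and NK cells (ENSG00000116824.5, chr1:116754430-116769229, plus strand), had H3K4me2 in 2 REH libraries at the end of the gene and H3K27me3 in 1 Raji library. CLEC12A (ENSG00000172322.14, chr12:9951316-9995694) and CLEC12B (ENSG00000256660.7, chr12:10010627-10018796), C-type lectin receptors on the plus strand of the natural killer gene region, had no H3K4 peak anywhere in the gene. CLEC12A had H3K27me3 in 3 NALM6, 1 REH and 3 Raji libraries, with up to 9.64%, 4.26% and 21.9% of the gene covered. It did not pass the test against either line, with adjusted p values of 0.702 and 0.625. CLEC12B had H3K27me3 in 1 Raji library.

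Related genes were read in the same fit. Of 11 C-type lectin genes beside these, 3 had an H3K4me2 window that could be tested. For H3K4me2, 1 of 4 windows was higher in NALM6 than in REH, at CLEC2D, and 3 were lower than in Raji, with a median log2 difference of -1.79 against -0.47 over all windows. CD69, an early activation antigen, and CLEC2D had H3K4me3 in 6 Raji libraries and in 0 of NALM6. Of the 27 ETS-family genes other than ERG, 19 could be tested for H3K4me2. Of their 27 windows, 1 was higher and 4 lower in NALM6 than in REH, and 2 were higher and 7 lower than in Raji, with medians of -0.31 and -0.24. The higher one against REH was the first start of FLI1, the closest relative of ERG. It had H3K4me2 at 1.15 to 1.55 in all 6 NALM6 libraries and in none of the 12 of REH and Raji, while its second start had H3K4me3 in every library of the 3 lines. The lower ones included ETV7, with H3K4me2 in 6 REH libraries and 0 of NALM6 and Raji, and ETV4, with 6 REH, 5 Raji and 0 NALM6 libraries. For H3K4me3 the 23 ETS windows had 2 higher and 4 lower against REH and 7 higher and 4 lower against Raji.

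The consensus site of DUX4 was searched on both strands as TAATC, any base and AATCA, and with fewer fixed letters as TAA, any 3 bases and AATCA, which includes the first. The first was in 0 of the 29 member windows and in 0.429% of all 55232 starts taken with 1 kb on each side. The second was in 9.81% of all starts and at PTPRM start 11 and STAP1 start 1 among the members, where no H3K4 peak was called. The second site also lay inside merged H3K4me2 regions of ERG, GYPC, PTPRM and STAP1. In ERG, matches at chr21:38499916, 38496274, 38494399 and 38480221 lay in chr21:38471761-38500680. This region of 28920 bp had H3K4me2 peaks in 5 NALM6 and 6 REH libraries. The share of all regions with a match was not counted. These are matches of letters and not measured binding.

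No tested member window passed the test for bryostatin in any line. Over the 3 marks, 6, 5 and 7 windows entered the fit and 0 passed an adjusted p under 0.05 (limma). In Raji all H3K4me2 and H3K4me3 values were 0, so no difference could be measured there for those marks. At an unadjusted p under 0.05 there was 1, GYPC H3K4me3 in NALM6, with 0.712, 0.237 and 0.232 untreated and 0.286, 0.221 and 0 treated (log2 difference -0.96 ± 0.43, adjusted p of 0.733). These values run from replicate 1 to 3, so 0.712 and 0.286 were on the other signal scale. The treated 0 was in the library with the fewest H3K4me3 peaks, 4389. Over all windows, bryostatin raised 0.24% and lowered 0.00615% for H3K4me2 in NALM6, 0.0923% and 0.0123% in REH and 0.0492% and 0% in Raji. For H3K4me3 in NALM6 the share was 0% in either direction by limma, with 898 windows at an unadjusted p under 0.05. In REH it was 0.00747% higher, and in Raji 0.0224% higher and 0.00747% lower. For H3K27me3, 0.0205% were higher in REH and 0% passed in NALM6 and Raji. AGAP1 start 3 in NALM6 had a mean H3K4me2 of 1.26 ± 0.91 untreated and 0.653 ± 0.40 treated (SD, n = 3). It was lower with bryostatin in all 3 same-numbered pairs. The difference of -0.79 ± 0.37 had an adjusted p of 0.601 (limma), 0.113 with the replicates blocked within each line, and without NALM6 replicate 1 it was -0.73 with an adjusted p of 0.0175, in a fit that called 229 of all windows against 40 with every library. The differences in response between NALM6 and REH or Raji passed at 0 member windows for each mark (limma, 0 at an unadjusted p under 0.05). Over all windows the H3K4me2 response was higher at 0.191% and lower at 0.0615% in NALM6 than in REH, and higher at 0.148% and lower at 0.0185% than in Raji.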

How the data were processed

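The analysis covered Cut&Tag for 3 histone marks (H3K4me2, H3K4me3, H3K27me3) in NALM6, REH and Raji, untreated or with 1 nM bryostatin, with 3 replicates per group taken from the labels. The IgG libraries were not used here. According to the study's methods and the submitters' processing notes, the authors demultiplexed reads with bcl2fastq, trimmed them with Trim Galore, aligned them to hg38 with Bowtie2 and called SEACR peaks in each library, and DESeq2 was among their tools. The deposited peak lists hold, for each peak, a total and a maximum signal. In 48 libraries this signal is RPKM coverage in bins of 10 bp, and in the 6 libraries of NALM6 replicate 1 its scaling is not given in the sources used here. Depth could be read from the step of the signal in the 48 libraries only. No IgG or input was subtracted here.

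The total signal of each peak was assigned by overlap to windows of 1 kb on each side of every start of a protein-coding gene (GENCODE 44) and to gene bodies, where it was expressed per kb. Each library was divided by the median of features called in all 18 libraries of the mark. Features with a peak in at least 3 of 18 libraries were tested on log2(value + 0.1) with limma 3.58.1 in R 4.3.3, using 6 groups per mark and Benjamini-Hochberg adjustment over all features, with a threshold of 0.05. Python 3.11.15 was used for all other steps. On simulated data for the comparison of NALM6 with REH, 34% of windows changed by 1 on the log2 scale and 80% of those changed by 2 were recovered for H3K4me2 (16253 windows). The recovery was 52% and 84% for H3K4me3 (13380 windows) and 37% and 80% for H3K27me3 (9772 windows).

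The members and gene lists were chosen with earlier results of these data known. All 8 genes are named at every start, and from each comparison list at most 3 genes with the largest difference past the threshold. The lists were ETS-family genes, C-type lectin genes, and markers of B lineage, precursor B, mature B, T and NK, myeloid and erythroid cells. Replicate numbers pair samples where all 3 same-numbered pairs of a line and mark correlate above 0.1 in their deviations from group means. This held for H3K4me2 in NALM6 (0.248 to 0.432) and REH (0.196 to 0.567), for H3K4me3 in Raji (0.145 to 0.366) and for H3K27me3 in NALM6 (0.4 to 0.743), and in no other line and mark. Alternatives were other pseudocounts, filters, scalings, overlaps and window sizes, the maximum signal, the upper 0.5 of peaks, equal numbers of peaks, untreated libraries alone, each replicate left out and a replicate block. Leaving out libraries with fewer than 5000 peaks and blocking within each line were added after the data had been seen.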

Additional observations from a re-analysis of the deposited data

How the results depend on the processing

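Counts of member windows and bodies past the threshold moved by over 1.5 times in these settings. With untreated libraries alone, H3K4me2 starts against REH went from 5 to 2, H3K4me3 starts against REH from 4 to 2, H3K27me3 starts from 2 to 0 against REH and from 1 to 0 against Raji, and H3K4me2 bodies against Raji from 5 to 2. That setting has fewer samples. Without scaling, H3K4me3 starts against REH went from 4 to 2, and H3K27me3 starts to 1 against REH and 0 against Raji. H3K27me3 starts against REH also fell to 1 with a pseudocount of 0.02, no filter beyond 1 library, an overlap of 200 bp, windows of 2 kb or libraries of at least 5000 peaks, and against Raji to 0 with an overlap of 200 bp or windows of 500 bp. H3K4me2 bodies against Raji fell to 2 with the upper 0.5 of peaks, and H3K27me3 bodies against REH from 2 to 0 with equal numbers of peaks, where 934 genes and none of the 8 were tested. With libraries of at least 5000 peaks, H3K27me3 rose from 1 to 2 starts and from 0 to 2 bodies against Raji, and that setting leaves 1 treated Raji library, assumed to vary like the other groups. Except where fewer samples or genes are named, the cause was not tested. Equal numbers of peaks were not run for H3K27me3 at starts. No member difference past the threshold reversed.

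Leaving out 1 replicate gave 4 to 5 H3K4me2 starts against REH and 3 to 4 against Raji, 4 to 4 and 4 to 5 for H3K4me3, and 1 to 2 and 1 to 2 for H3K27me3. Over bodies it gave 2 to 4 and 5 to 5 for H3K4me2, 3 to 3 and 3 to 4 for H3K4me3, and 2 to 4 and 0 to 0 for H3K27me3. For bryostatin it gave 0 to 1 for H3K4me2 in NALM6, where the 1 was AGAP1 start 3 without replicate 1, and 0 to 0 elsewhere.

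With the replicate block, ERG start 3 passed for H3K4me3 against Raji (limma adjusted p of 0.0454), and the calls for bryostatin stayed at 0 member windows. Over all windows, blocking within each line took the bryostatin calls from 17 to 11 in REH and from 8 to 4 in Raji for H3K4me2, from 4 to 0 in Raji for H3K4me3 and from 1 to 0 in REH for H3K4me3.

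Over all windows, scaling moved the split of calls. NALM6 against REH had 667 higher and 2883 lower H3K4me2 starts, but 1078 and 2317 with quantile normalization and 970 and 1572 with equal numbers of peaks. For H3K4me3 the split was 741 and 1882, but 141 and 1515 without scaling, 963 and 1515 with quantile normalization and 809 and 1107 with equal numbers of peaks. Against Raji, 1841 and 3732 H3K4me2 starts became 1738 and 2073 with equal numbers of peaks, and 1631 and 3721 H3K4me3 starts became 506 and 2083 without scaling and 1423 and 1791 with equal numbers of peaks. The total called for H3K27me3 starts against Raji was 1033 with all libraries, 2782 without NALM6 replicate 1 and 4735 with libraries of at least 5000 peaks. In bodies, H3K4me2 against REH had 625 and 2622, but 166 and 2178 without scaling, 1773 and 1724 with quantile normalization and 1012 and 1437 with equal numbers of peaks. H3K4me3 against REH had 694 and 1892, but 110 and 1422, 1073 and 1105, and 915 and 1092 in the same order. Against Raji, 1575 and 3565 for H3K4me2 became 1752 and 2483 with quantile normalization and 1620 and 2236 with equal numbers of peaks, and 1557 and 3005 for H3K4me3 became 460 and 2301 without scaling, 1820 and 2039, and 1518 and 1630. H3K27me3 went from 815 and 2613 to 296 and 355 with equal numbers of peaks against REH, and from 334 and 348 to 41 and 136 without scaling and 335 and 228 with quantile normalization against Raji.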
